A study of Mus musculus with 50 samples.

Results

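The ERBB receptor family of the mouse has 4 members, Egfr, Erbb2, Erbb3 and Erbb4, and their levels were described here in 50 mammary tumours in which Erbb2 is the transgenic oncogene. The members were taken by name, among 22180 genes with a probe set of a single gene on the array, and each receptor has 1 such probe set. All 4 passed the filter on low signal, which left 18045 genes. Each sample was a biopsy of a spontaneous mammary tumour of a female MMTV-ErbB2 mouse, taken before docetaxel according to the sample labels, while the series title names Doxorubicin. The mice came from a backcross in which (C57BL/6J x FVB/NJ) animals were mated to FVB/NJ MMTV-Erbb2 animals, so every tumour carried the transgene and the genomes differed between mice. The age of the mice was not given in the labels used here. Total RNA was hybridised to 1 Affymetrix array per tumour, and the labels put all 50 in a single group with no control tissue. The comparisons are therefore relations over tumours, and their p-values measure only the spread between these samples.

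The ERBB receptors are receptor tyrosine kinases of the cell surface that pair with each other when a ligand binds. EGF, TGF-alpha and amphiregulin bind EGFR, the neuregulins bind ERBB3 and ERBB4, and HB-EGF, betacellulin and epiregulin bind both EGFR and ERBB4. ERBB2 binds no known ligand and is the preferred partner of the others, ERBB3 has an impaired kinase and recruits PI3-kinase, and ERBB4 supports alveolar differentiation and milk production through STAT5. The MMTV promoter drives a transgene mainly in mammary epithelium, and the labels do not say if the Erbb2 probes match transgene RNA, RNA of the mouse's own gene, or both.

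Regions at or near the start of 3 of the receptor genes are shown because factors of the ETS, AP-2, STAT5 and GATA families were among the genes set against the receptors below. They are 300 bases long, are from RefSeq on build GRCm38.p6, and are written 5′ to 3′ on the gene's strand. The Egfr and Erbb2 regions end 50 bases after the gene start. The Erbb4 region lies wholly inside the gene, whose outer start on the minus strand is at chr1:69108576, so it does not cover that start. Capitals mark the ETS core AGGAAG on either strand. The regions are chr11:16751953-16752252 (plus strand) for Egfr, chr11:98412234-98412533 (plus strand) for Erbb2 and chr1:69108010-69108309 (minus strand) for Erbb4.
Egfr: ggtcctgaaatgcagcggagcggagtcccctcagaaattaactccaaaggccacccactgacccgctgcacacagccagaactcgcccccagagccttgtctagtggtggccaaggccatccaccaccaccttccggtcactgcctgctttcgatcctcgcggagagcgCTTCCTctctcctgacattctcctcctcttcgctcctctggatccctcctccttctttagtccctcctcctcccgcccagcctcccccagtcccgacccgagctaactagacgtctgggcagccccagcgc
Erbb2: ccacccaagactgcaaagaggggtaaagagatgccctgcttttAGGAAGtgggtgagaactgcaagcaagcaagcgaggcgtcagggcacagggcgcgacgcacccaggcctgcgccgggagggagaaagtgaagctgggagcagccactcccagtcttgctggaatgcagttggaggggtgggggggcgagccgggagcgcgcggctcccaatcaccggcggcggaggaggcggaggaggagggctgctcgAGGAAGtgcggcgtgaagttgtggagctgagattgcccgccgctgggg
Erbb4: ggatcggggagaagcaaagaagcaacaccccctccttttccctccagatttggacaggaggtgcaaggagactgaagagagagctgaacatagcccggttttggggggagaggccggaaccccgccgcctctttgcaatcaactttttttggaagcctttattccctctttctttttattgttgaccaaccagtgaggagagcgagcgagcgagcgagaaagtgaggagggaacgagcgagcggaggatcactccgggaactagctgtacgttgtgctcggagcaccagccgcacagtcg

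The ETS core occurred 2 times in the Erbb2 region, with first bases at -207 and 3 counted from the gene start, 1 time in the Egfr region at -81, and 0 times in the Erbb4 region. It occurred in 35.4% of 32851 mouse regions of the same length. The AP-2 motif GCCNNNGGC, the STAT5 motif TTCNNNGAA and the GATA motif AGATAA, searched on both strands with overlaps counted, had 0 matches in all 3 regions and occurred in 16.6%, 8.3% and 11.2% of the 32851 regions. A match describes letters and is not a binding site, and the MMTV transgene does not use the Erbb2 region.

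Values were RMA log2 levels between 2.53 and 13.65, and no pair of arrays held identical values. Averaged over its correlations with all other tumours, an array had r = 0.978 at the median, and the lowest means were those of mid79 (0.916), mid60 (0.931) and mid100 (0.954). Results are therefore given over all 50 tumours, over the 48 other than mid60 and mid79 and, where it matters, over the 47 without mid100 as well. In these bulk biopsies, fewer cells of a type and less RNA per cell cannot be told apart.

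Erbb2 was steady over 48 of the tumours and far lower in the other 2. Its log2 level was 9.02 at the lowest in mid60, 11.71 at the median and 11.94 at the highest in mid101 and mid25, and mid79 at 9.25 was the only other tumour below 11.10. A gap of 1.85 log2 separated mid79 from the next tumour, mid186. The SD was 0.54 (mean 11.58, n = 50), larger than that of 90.2% of tested genes. Over the 48 other tumours the mean was 11.68 ± 0.19 log2 (SD), all values lay within 1.79-fold, and 42.3% of tested genes had a smaller SD. The spread of the oncogene's signal thus rested on mid60 and mid79.

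Erbb3 had a similar shape, with 1 tumour far below the rest. Its log2 level was 6.88 in mid79, 10.69 at the median and 11.12 at the highest in mid122. The next lowest values were 9.72 in mid100 and 9.97 in mid60. The SD was 0.60 over 50 tumours (mean 10.60), 0.26 over 48 (mean 10.70) and 0.22 over 47 (mean 10.72), where it exceeded the SD of 92.6%, 65.8% and 53.8% of tested genes.

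Erbb4 was the receptor whose level differed most between tumours in each of these sets. Its log2 level was 4.35 at the lowest in mid79, 7.56 at the median and 9.01 at the highest in mid99. The mean was 7.31 ± 1.23 (SD, n = 50), and the SD ranked 104 among 18045 genes. Without mid60 and mid79 it was 7.42 ± 1.12, with 19.2-fold between the lowest and the highest tumour, and 99.3% of tested genes had a smaller SD. In 7 tumours Erbb4 was over 2 log2 below the median, at 4.35 to 5.01, and a gap of 0.77 log2 separated them from the next tumour, mid25. These were mid79, mid9, mid60, mid101, mid11, mid145 and mid111. Their levels lay near the low end of the array, between the filter on low signal (4.09) and the 50th percentile of probe set means (5.27). Differences among these 7, and the size of the fold range, are therefore uncertain. Erbb2 was 11.94, 11.78, 11.63 and 11.83 log2 in mid101, mid11, mid111 and mid145, against a median of 11.71 over 50 tumours. A low Erbb4 level thus also occurred with Erbb2 near its median or above it. In mid9 Erbb2 was 11.33, just below the 5th percentile of the 48 tumours (11.34).

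Egfr had a low tail but no wide gap. Over 50 tumours 6 lay more than 0.5 log2 below its median and 0 more than 0.5 log2 above it. Its largest gap was 0.27 log2, between mid7 and mid16. Its log2 level was 7.99 at the lowest in mid7, 9.01 at the median and 9.47 at the highest in mid75. The SD was 0.33 with and without mid60 and mid79 (mean 8.94, n = 50), larger than that of 73.1% of tested genes over 50 tumours. Levels of different probe sets depend on their probes, so the receptors were not ranked by level against each other.

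**Figure D1:**
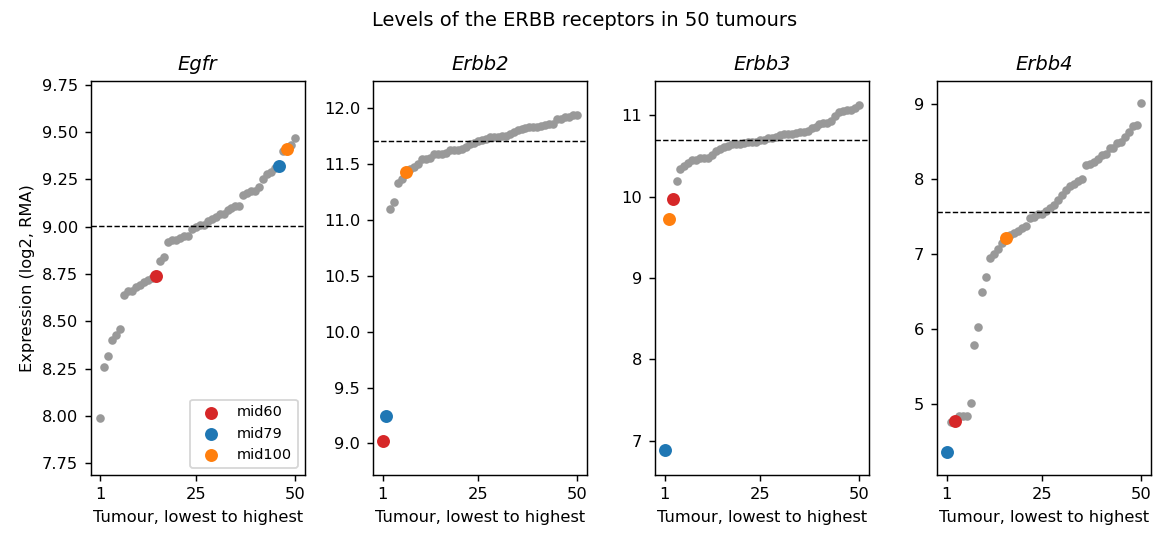
RMA log2 level of each receptor (vertical axes, each with its own range) in 50 tumours ordered from lowest to highest (horizontal axes), with mid60, mid79 and mid100 coloured and the median dashed. Erbb2 is low in mid60 (9.02) and mid79 (9.25), Erbb3 in mid79 (6.88), and Erbb4 in a lower set of 7 tumours. Egfr runs from 7.99 to 9.47, with a low tail and no wide gap.

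The biopsies mid60 and mid79 departed from the other 48 in many genes besides the receptors. In mid60, Erbb2 was 6.48-fold below the median of the other 48 (9.02 against 11.72 log2), Erbb4 7.06-fold below (4.77 against 7.59) and Erbb3 1.66-fold below (9.97 against 10.71). In mid79, Erbb2 was 5.52-fold below (9.25 against 11.72), Erbb3 14.2-fold below (6.88 against 10.71) and Erbb4 9.45-fold below (4.35 against 7.59). Erbb2 in both biopsies and Erbb3 and Erbb4 in mid79 lay below the lowest of the other 48, while Erbb3 and Erbb4 in mid60 lay just inside their range. Egfr lay inside the range of the other 48 in both, at 8.74 in mid60 and 9.32 in mid79 against a median of 9.01. Of all tested genes, mid60 was above the highest of the 48 in 1607 and below the lowest in 2128, and mid79 in 1979 and 2978.

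Markers of other tissues differed in these 2 biopsies. In mid60, 11 of 11 tested skin genes were above all 48 other tumours, among them Sprr1b, a cornified envelope protein (10.57 against a median of 4.42), and the keratins Krt10 (11.03 against 5.78) and Krt6b (10.04 against 4.17). The mean level of the skin list was 9.08 in mid60, against 4.76 to 5.20 in the 48. The basal keratin Krt14 was 10.16 in mid60 against 4.34, while of 19 luminal genes 4 were above and 2 below the range of the 48. The mean of the luminal list was 9.15 in mid60, against 8.08 to 9.05. In mid79, 14 of 19 luminal genes were below all 48, led by Esrp1, an epithelial splicing factor (5.48 against 9.34), the adhesion gene Cdh1 (6.46 against 10.30) and the tight junction gene Cldn3 (6.73 against 10.47). The mean of the luminal list was 6.29 in mid79, against 8.08 to 9.05. All 9 tested adipocyte genes were above the 48 in mid79, with the hormones Retn (11.95 against 5.15), Lep (11.57 against 4.90) and Adipoq (10.29 against 4.05), and the mean of that list was 11.10 against 5.02 to 7.45. B cell genes were above the 48 in 7 of 7 cases in mid60 and 6 of 7 in mid79, and 14 of 14 proliferation genes were below them in mid79. The 2 tumours low in Erbb2 thus differed from each other, one with luminal genes mostly in range and the other with most of them below it. The part of these other tissues in the receptor levels was not tested.

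The receptors were next compared in 6 pairs, with Pearson's r, Spearman's rho and two-sided permutation tests. Adjusted p-values are from limma over all genes tested. Erbb2 and Erbb3 were related over all 50 tumours, with r = 0.71 (permutation p = 0.00095, adjusted p = 1.83e-07), but rho was 0.24 (p = 0.0922). Without mid60 and mid79, which are also the tumours farthest from the Erbb2 median, r was 0.23 (95% interval -0.05 to 0.49, p = 0.108, adjusted p = 0.396). Erbb2 and Erbb4 gave r = 0.39 over 50 tumours (p = 0.0108, adjusted p = 0.0174, rho = 0.05) and -0.13 without the pair (p = 0.372, adjusted p = 0.673). Erbb3 and Erbb4 gave r = 0.36 over 50 tumours (p = 0.0106, adjusted p = 0.0274, rho = 0.10) and 0.01 over 48 (p = 0.962, adjusted p = 0.979). Within the 43 tumours outside the low Erbb4 set, r with Erbb4 was -0.18 for Erbb2, -0.01 for Erbb3 and -0.15 for Egfr (permutation p = 0.26, 0.936 and 0.332). The 3 positive relations that passed over all tumours therefore rested on mid60 and mid79.

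Egfr ran the other way. Egfr and Erbb2 gave r = -0.17 over 50 tumours (p = 0.227, rho = -0.35 with p = 0.0129) and -0.37 over 48 (95% interval -0.59 to -0.10, p = 0.00932, rho = -0.36 with p = 0.0131). Leaving out mid7 and mid16, the tumours farthest from the Egfr median, but keeping mid60 and mid79, gave r = -0.14 (p = 0.341) and rho = -0.30 (p = 0.0366). Over all genes that relation missed the threshold, with a limma adjusted p of 0.103 in the 48 tumours. Egfr and Erbb3 gave r = -0.27 over 50 tumours (p = 0.0568) and -0.34 over 48 (p = 0.0202, limma adjusted p = 0.151, rho = -0.26), and r was -0.27 over 47. Egfr and Erbb4 gave r = 0.00 over 50 (p = 0.979) and 0.04 over 48 (95% interval -0.25 to 0.32, p = 0.783). Of the 6 pairs, 0 passed the limma threshold in the 48 tumours, although Egfr with Erbb2 and Egfr with Erbb3 had an unadjusted p under 0.05.

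**Figure D2:**
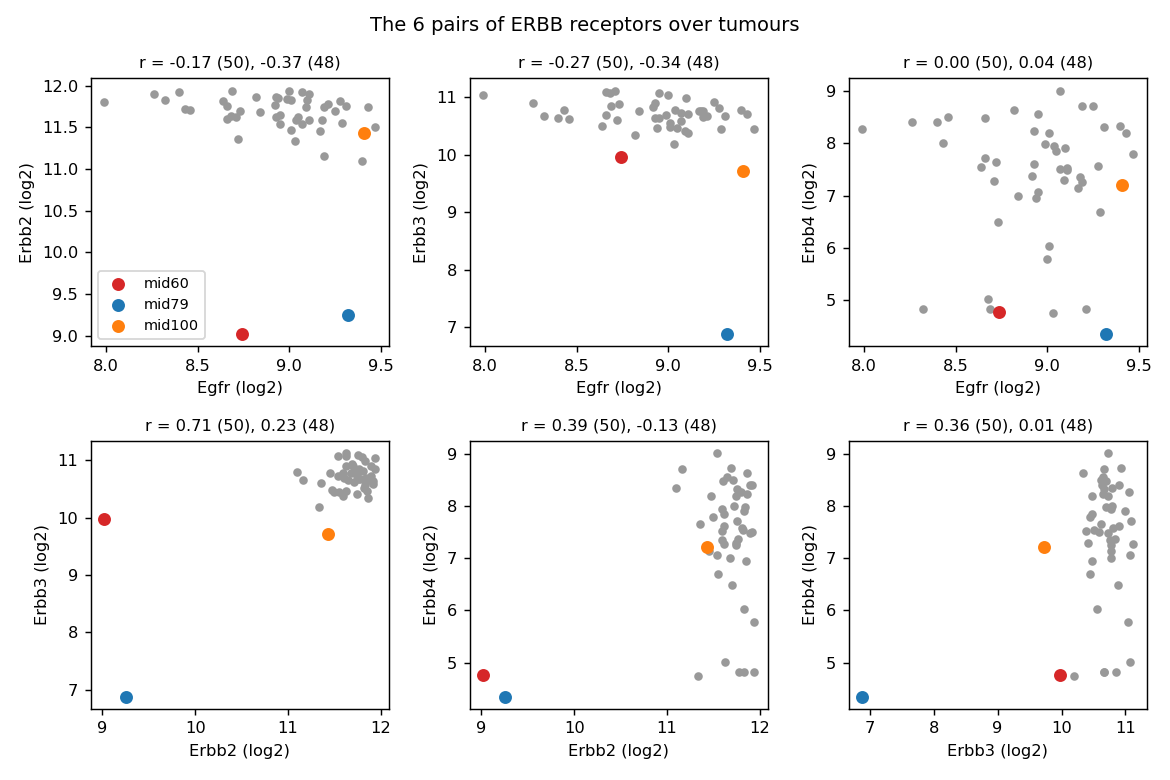
The 6 pairs of receptors, with the RMA log2 level of one on each axis, 1 point per tumour and mid60, mid79 and mid100 coloured; panel titles give Pearson's r over 50 and over 48 tumours. For Erbb2 with Erbb3, r is 0.71 with the coloured points of mid60 and mid79 and 0.23 without them.

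Each receptor's level was then set against every other tested gene with limma, called at an adjusted p under 0.05. For Erbb2, 2991 genes (16.6%) were higher and 2658 (14.7%) lower where it was higher over 50 tumours, but 36 (0.2%) and 46 (0.255%) over 48. Of those, 26 and 33 were called in both sets. For Erbb3, 3403 (18.9%) were higher and 2359 (13.1%) lower over 50, 1697 (9.4%) and 1155 (6.4%) over 48, and 663 (3.67%) and 234 (1.3%) over 47, so mid100 alone moved the count by more than 1.5 times. For Erbb4, 2087 (11.6%) and 1864 (10.3%) were called over 50 and 1081 (5.99%) and 857 (4.75%) over 48, with 933 and 697 in both. For Egfr, 274 (1.52%) and 313 (1.73%) were called over 50 and 369 (2.05%) and 375 (2.08%) over 48, with 258 and 280 in both. Without mid7 and mid16, 0.482% and 0.704% were called in place of 1.52% and 1.73%. In the same 48 tumours with stromal marker scores (fibroblast, endothelial, adipocyte and macrophage) as covariates, limma called 0.964% and 0.399% with Egfr, 0.0166% and 0.0277% with Erbb2, 1.5% and 0.97% with Erbb3 and 4.06% and 4.46% with Erbb4. On ranks it called 2.43% and 2.28% with Egfr, 5.13% and 1.56% with Erbb3 and 5.23% and 3.55% with Erbb4. Over 47 tumours it called 1.96% and 1.45% with Egfr, 0.0554% and 0.105% with Erbb2 and 6.25% and 5.46% with Erbb4. In these fits without mid60 and mid79, counting both directions together, Erbb2 thus had the fewest calls of the 4 receptors and Erbb3 and Erbb4 the most. With a chromosome 4 score as a covariate, given at the end, Egfr had fewer than Erbb2. The calls with Erbb4 were fewer without the 7 tumours in which it was low. Over the 43 others, limma called 253 genes (1.4%) higher and 133 (0.737%) lower, and 243 of the 253 were called over 48 tumours too. Values within these 43 tumours are therefore given for the genes nearest to Erbb4 and for part of the list genes, with a count for the rest.

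**Figure D3:**
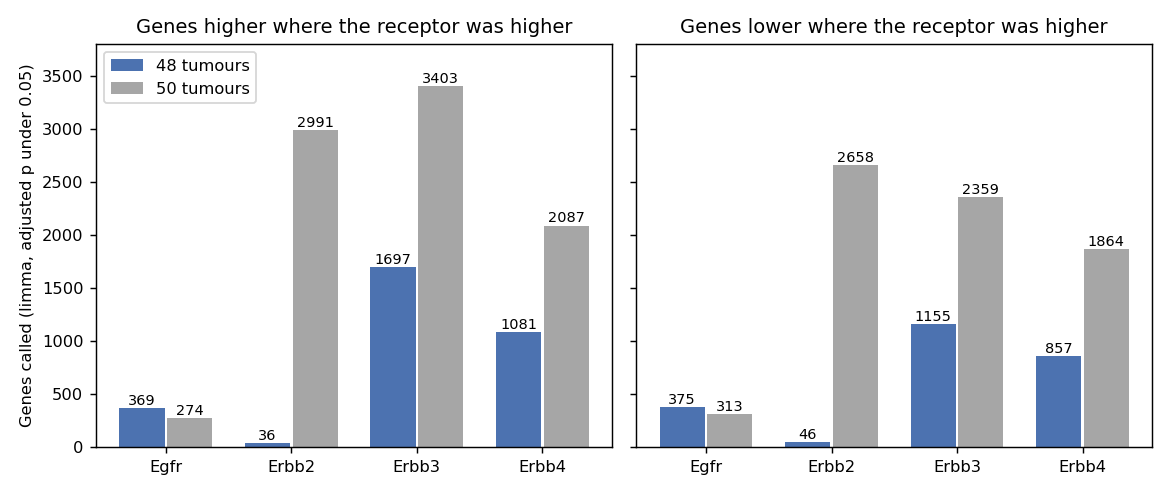
Number of genes (vertical axes, from 0) called higher (left) and lower (right) where a receptor was higher, in 48 tumours without mid60 and mid79 and in all 50. For Erbb2 the counts are 36 and 46 over 48 tumours, against 2991 and 2658 over 50.

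Among the ligands, Egf followed Erbb4 closely. Egf had a log2 level of 5.04 at the lowest in mid9, 6.82 at the median and 8.80 at the highest in mid37. Over 48 tumours its r with Erbb4 was 0.81 (permutation p = 1e-05, the smallest that 100000 permutations can give, and limma adjusted p = 3.05e-09), rho was 0.84 and r without the 2 tumours farthest from the Erbb4 median, mid9 and mid101, was 0.77. Within the 43 tumours outside the low Erbb4 set, r was 0.76 (limma adjusted p = 1.09e-05) and rho 0.78. Egf rose by 0.83 log2 per SD of Erbb4 (standard error 0.09). Its r with the other receptors was -0.05 for Egfr, -0.07 for Erbb2 and 0.06 for Erbb3, with limma adjusted p of 0.905, 0.853 and 0.805.

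The ligand Hbegf ran against Erbb4. Its log2 level was 6.25 at the lowest, 7.03 at the median and 8.24 at the highest in mid60, and its r with Erbb4 over 48 tumours was -0.49 (limma adjusted p = 0.00711, rho = -0.42). Over the 43 tumours it was -0.38 and not called (limma adjusted p = 0.160). Btc, betacellulin, was higher with Erbb3 (r = 0.44, limma adjusted p = 0.0210), and Nrg1, a neuregulin, was lower with Erbb3 (r = -0.43, adjusted p = 0.0181). Both calls ended without mid100, with limma adjusted p of 0.0605 for Btc and 0.0666 for Nrg1. Nrg1 was among the more variable ligands, from 4.93 in mid33 over a median of 6.26 to 9.45 in mid54. Nrg2, another neuregulin, was 5.81 at the lowest in mid79, 8.01 at the median and 8.58 at the highest, and its r with Erbb2 was 0.76 over 50 tumours (limma adjusted p = 4.54e-09) and 0.46 over 48 (adjusted p = 0.0684).

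The other ligands were not called with a receptor in the 48 tumours. Tgfa ranged from 5.88 in mid79 over a median of 7.18 to 8.55 in mid60, Ereg, epiregulin, from 5.33 over 5.74 to 6.24, and Epgn, epigen, from 4.18 over 4.51 to 5.86. Nrg3 ranged from 4.88 over 5.08 to 5.28 and Nrg4 from 4.79 over 5.05 to 6.77 in mid79. Areg had no probe set of its own. Nrg4 had r = -0.82 with Erbb3 over 50 tumours (limma adjusted p = 1.18e-11) and -0.06 over 48 (adjusted p = 0.828). Nrg4 was 4.98 in mid60 and 6.77 in mid79, against 4.79 to 5.24 in the other 48, so of the 2 tumours left out mid79 alone lay outside the range. The largest r of Epgn was -0.34, with Erbb3 (limma adjusted p = 0.0765), and that of Tgfa was -0.30, with Erbb4 (adjusted p = 0.168).

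The genes nearest to Erbb4 were of several kinds. By r over 48 tumours its nearest genes were Clic6, of the chloride intracellular channel family (0.84), Acad9, a mitochondrial acyl-CoA dehydrogenase that helps to assemble respiratory complex I (0.82), Egf (0.81), Fam221a (0.78) and Rabep2, a partner of Rab GTPases (0.77). Clic6 was 8.73 in mid60 and 6.93 in mid79, against 7.81 at the lowest, 9.97 at the median and 10.76 at the highest of the other 48. Its rho over the 48 was 0.63. The genes with the most negative r were Dclk1, a microtubule-associated kinase (-0.78), Trpv4, a calcium-permeable channel (-0.77), Fndc1, a fibronectin type III domain protein (-0.74), Lima1, an actin-binding protein (-0.73), and Tpgs2, a subunit of the tubulin polyglutamylase complex (-0.73). All 10 were called by limma over 47 tumours, on ranks, with scores of fibroblast, endothelial, adipocyte and macrophage markers as covariates and with a chromosome 4 score as a covariate. Limma called 9 of the 10 within the 43 tumours, with r of 0.74 for Acad9 and -0.72 for Lima1, while Clic6 had 0.58 (adjusted p = 0.00877) and Tpgs2, at -0.44, was not called (adjusted p = 0.0917). Over all 50 tumours the nearest genes were Clic6 (0.86), Acad9 (0.86) and Egf (0.83), and the most negative were Tpgs2, Dclk1 and Fndc1 (-0.79, -0.79 and -0.78).

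Both STAT5 genes rose with Erbb4, whose intracellular part acts with STAT5A. Of 6 tested genes known to work with ERBB4 in the cell, 2 were called higher and 0 lower over 48 tumours, against 5.99% and 4.75% of all genes. Stat5b had r = 0.54 (limma adjusted p = 0.00261, rho = 0.51) and Stat5a r = 0.48 (adjusted p = 0.00922, rho = 0.45). Neither was called within the 43 tumours outside the low Erbb4 set, with r of 0.36 and 0.35 (limma adjusted p = 0.221 and 0.232). Stat5b was 7.75 in mid60 and 8.07 in mid79, against 7.81 at the lowest, 8.53 at the median and 9.10 at the highest of the other 48. Among 14 STAT5 targets and alveolar genes, 1 was called higher, Lalba, the milk protein alpha-lactalbumin (r = 0.53, limma adjusted p = 0.00217), and 0 lower. Its r within the 43 tumours was 0.40 (limma adjusted p = 0.130). It was 8.71 in mid60 and 9.55 in mid79, against 8.79, 12.66 and 13.21 as lowest, median and highest of the 48. The median r of that list was 0.05, against 0.00 over all tested genes, and 13 of the 14 were not called.

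Among factors that act on the receptor genes, Etv1, an ETS factor, and Gata3, a luminal factor, rose with Erbb4, 2 of 14 tested, against 5.99% of all genes higher and 4.75% lower in the 48 tumours. Etv1 had r = 0.58 (limma adjusted p = 0.000858) and Gata3 r = 0.49 (adjusted p = 0.00630), and the call of Gata3 ended with the chromosome 4 score as a covariate (adjusted p = 0.167). Neither was called over the 43 tumours, with r of 0.41 for Etv1 and 0.33 for Gata3 (limma adjusted p = 0.129 and 0.273). Restraints of receptor signalling went both ways, with 3 of 21 higher and 4 lower, against the same 5.99% and 4.75%. Ptpn18, a phosphatase that acts on ERBB2, rose (r = 0.66, limma adjusted p = 4.62e-05), as did Lrig2 (0.46) and Cblc (0.42). Ptpn2 (-0.45), Ptpn1 (-0.43), the ubiquitin ligase Cbl (-0.42) and Spry1 (-0.41) fell. Of 7 genes for the release of ligands, Rhbdf2 rose (0.49) and Adam9, a membrane protease (-0.58), and Rhbdf1 (-0.54) fell. Within the 43 tumours the r of Cbl was -0.17 and that of Cblc 0.14. For the other 5 named restraints r was 0.47 (Ptpn18), 0.40 (Lrig2), -0.47 (Ptpn1), -0.45 (Ptpn2) and -0.45 (Spry1). Ptpn1, Ptpn2 and Spry1 were thus no weaker there than over 48 tumours, while Ptpn18 and Lrig2 were weaker. Of these 10 restraints and release genes Adam9 alone was called. Spread over both directions, these lists gave median r of 0.15 for the factors, 0.08 for the restraints and -0.09 for the release genes.

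Luminal genes also went both ways with Erbb4, against 5.99% of all genes higher and 4.75% lower. Of 19 luminal markers, Esrp1 (r = 0.60, limma adjusted p = 0.000351) and Spint2, a protease inhibitor (0.42), rose and the keratin Krt7 fell (-0.54, adjusted p = 0.00201). Beside them, 3 of 12 fibroblast genes fell with Erbb4, Postn (-0.44), Col5a1 (-0.40) and Thy1 (-0.40), as did the macrophage gene Cd14 (-0.52), 1 of 10. The basal gene Cdh3 (-0.40), 1 of 10, and the myelin gene Pmp22 (-0.39), 1 of 4 tested nerve genes, fell as well. Over 48 tumours, r with Erbb4 was -0.38 for the basal score (rho = -0.46), -0.36 for the macrophage score (rho = -0.42), -0.32 for the fibroblast score (rho = -0.30) and -0.16 for the endothelial score. The part of these cells in the Erbb4 relations was not tested beyond the fit with stromal scores. Of the 27 genes that the lists named with Erbb4, at most 4 per list and direction, 15 were called with the stromal scores as covariates, 16 with the chromosome 4 score and 20 on ranks. Within the 43 tumours 2 of the 27 were called, Egf and Adam9 (r = -0.52, limma adjusted p = 0.0251), with Ptpn18 at 0.0555 and Esrp1 at 0.118. There r shrank to -0.17 for Col5a1, -0.22 for Postn and -0.26 for Thy1, but was -0.42 for Cdh3, against -0.40 over 48 tumours. The other list calls thus ended without the low Erbb4 tumours, in a set that is also smaller, and not all of them with a weaker r.

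**Figure D4:**
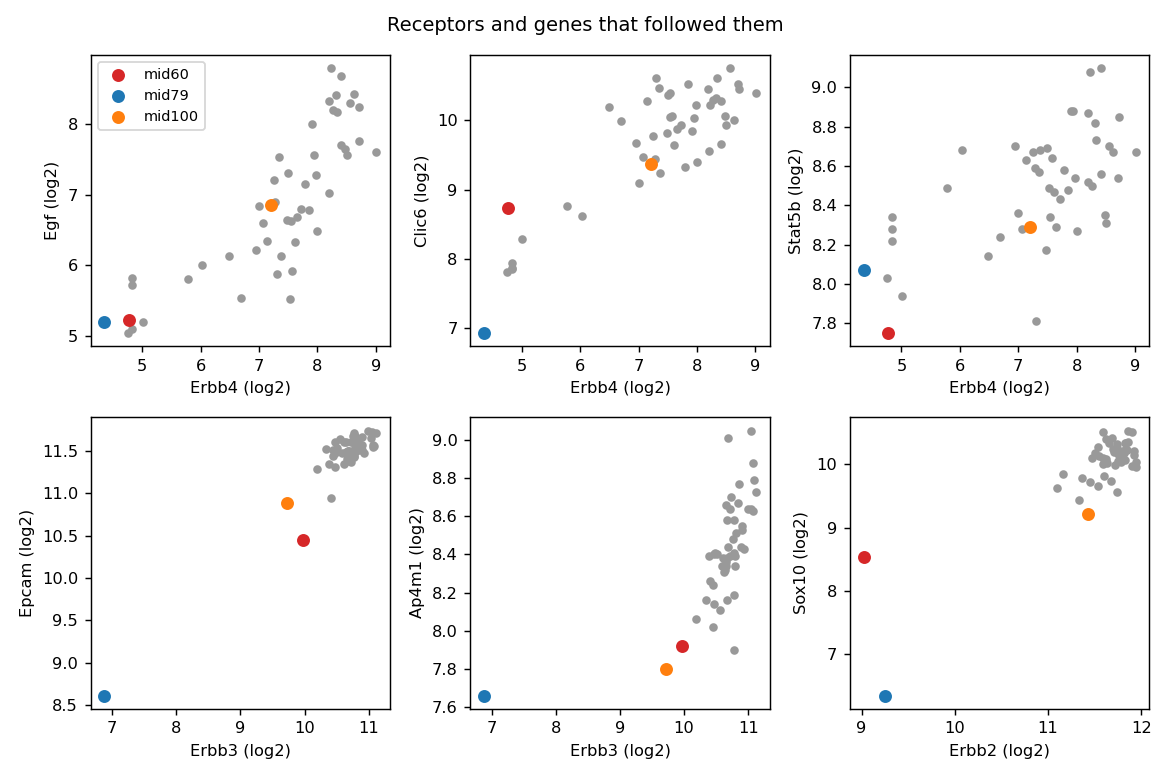
RMA log2 level of a receptor (horizontal axes) against that of a related gene (vertical axes), 1 point per tumour with mid60, mid79 and mid100 coloured. Egf, Clic6 and Stat5b rise with Erbb4 through the grey points (r = 0.81, 0.84 and 0.54 over 48 tumours), with the low Erbb4 tumours set apart at the left, Epcam and Ap4m1 with Erbb3 (0.69 and 0.71), and Sox10 with Erbb2 (0.53).

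The genes nearest to Erbb3 had varied roles, with 2 junction proteins among the first 5. Its r over 48 tumours was 0.73 with Cgnl1, a tight junction protein, 0.72 with Dus3l, a tRNA-modifying enzyme, 0.71 with Wrnip1, a protein of DNA replication, 0.71 with Ap4m1, a subunit of a vesicle adaptor, and 0.70 with Dsc2, a desmosomal cadherin. The most negative were Clec4a2, a lectin of myeloid cells (-0.70), Calml4 (-0.70), Fam205a2 (-0.68), Pde8a, a cAMP phosphodiesterase (-0.67), and Wwp1, a ubiquitin ligase that acts on ERBB4 (-0.66). All 10 were called over 47 tumours, and over 48 tumours on ranks and with either set of covariates. With the stromal scores over all 50 tumours, limma did not call Dsc2 (adjusted p = 0.0521), Clec4a2 (0.298), Calml4 (0.280), Fam205a2 (0.384) or Wwp1 (0.184). Over all 50 tumours the largest r were with Epcam (0.94), Cdcp1 (0.93) and Cldn3 (0.91), and Rarres1 (-0.94), Gnai1 (-0.94) and Ccdc3 (-0.92) were the most negative. Over 48 tumours these were 0.69, 0.59, 0.65, -0.61, -0.63 and -0.54, and over 47 limma did not call Cdcp1 (adjusted p = 0.197) or Ccdc3 (0.238). For Cdcp1 rho was 0.31 over 50 tumours and 0.22 over 48.

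Of 19 luminal markers, 8 rose and 1 fell with Erbb3 over 48 tumours, against 9.4% and 6.4% of all genes, and 3 rose and 0 fell over 47, against 3.67% and 1.3%. Epcam, an epithelial adhesion protein, was 10.45 in mid60 and 8.61 in mid79, against 10.89, 11.51 and 11.74 as lowest, median and highest of the other 48. Its r over the 48 was 0.69 (limma adjusted p = 0.000141), rho was 0.55, r without mid100 and mid9 was 0.52, and the adjusted p over 47 tumours was 0.0102. Cldn3 (0.65, adjusted p over 47 = 0.0107 by limma) and Cdh1 (0.61, 0.0145) were called in both sets. St14, a membrane protease (0.55), and Krt19, which fell (-0.43) and had a low mean level (4.82), were called over 48 and not over 47, with limma adjusted p of 0.133 and 0.411. With the stromal scores as covariates over 48 tumours, Epcam (limma adjusted p = 0.0122) and Cldn3 (0.0244) were called, and Cdh1 (0.0647) and St14 (0.0916) were not. Of the 44 genes that the lists named with Erbb3, at most 4 per list and direction, 6 were called with the stromal scores, 38 with the chromosome 4 score, 11 on ranks and 7 over 47 tumours.

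Genes of muscle, macrophages and vessels fell with Erbb3 over the 48 tumours, which include mid100. There, 8 of 9 muscle genes, 9 of 10 macrophage genes, 7 of 10 endothelial genes, 3 of 12 fibroblast genes and 2 of 9 adipocyte genes fell, against 6.4% of all genes. Over all 50 tumours 0 of 9 muscle genes (limma, with 0 at an unadjusted p under 0.05), 3 of 10 macrophage, 10 of 10 endothelial, 8 of 12 fibroblast and 9 of 9 adipocyte genes fell, against 13.1%. Over 47 tumours, where 1.3% of all genes fell, 1 of the 10 macrophage genes fell, Msr1, a scavenger receptor (limma adjusted p = 0.0297), and limma called 0 of the muscle, endothelial, fibroblast and adipocyte genes, with 1, 1, 0 and 0 lower at an unadjusted p under 0.05. In mid100 the muscle gene Myh4 was 11.58 against a median of 4.05 and the mean of the muscle list was 10.16, the highest of the 48, against a median of 5.26. Myh4 was also high outside mid100, up to 12.01 in another of the 48. Acta1, skeletal actin, had r = -0.49 with Erbb3 over 48 tumours and an adjusted p of 0.305 by limma over 47, and C1qc, a complement gene of macrophages, -0.57 and 0.0800. Over the 48 tumours, most of the calls of stromal and muscle genes thus rested on mid100, and the part of muscle in the Erbb3 level there was not tested. The muscle score itself had r = -0.49 with Erbb3 over 48 tumours and -0.17 over 47. Its rho over 48 was -0.49, a rank relation that 1 tumour cannot give, and rho over 47 was not computed.

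In the signalling lists, Erbb3 had more calls in the 48 tumours than in the 47, as it had over all genes (9.4% higher and 6.4% lower, against 3.67% and 1.3%). Of 18 adaptors and kinases, Grb7 (r = 0.47) and Gab1 (0.44) rose and Gab2 fell (-0.47), and Gab1, a docking protein that binds PI3-kinase, was still called over 47 (limma adjusted p = 0.0155), with Grb7 at 0.214 and Gab2 at 0.0954. Of 14 factors, Etv5 (0.55), Tfap2a (0.53), Tfap2c (0.45) and Elf3 (0.39) rose and Ybx1 fell (-0.58). Over 47 tumours Ybx1 was called (limma adjusted p = 0.00949) and Etv5 (0.0754), Tfap2a (0.208), Tfap2c (0.227) and Elf3 (0.166) were not. With the stromal scores as covariates over 48 tumours, Gab1 was called (limma adjusted p = 0.00597) and Grb7 (0.105), Gab2 (0.472), Etv5 (0.179), Tfap2a (0.310), Tfap2c (0.475), Elf3 (0.0901) and Ybx1 (0.0914) were not. Of 21 restraints 3 rose, Socs5 (0.50), Dusp6 (0.43) and Dusp4 (0.40), with 0 called over 47 tumours and 4 higher at an unadjusted p under 0.05. With the stromal scores Socs5 was called (limma adjusted p = 0.0130) and Dusp6 (0.147) and Dusp4 (0.228) were not. Among the genes that work with ERBB4, Wwp1 fell and Yap1, a coactivator, rose with Erbb3 (0.59), the first called and the other not called over 47 tumours (limma adjusted p = 0.0198 and 0.138). Of 7 release genes Rhbdf2 rose (0.38) and Adam15 fell (-0.43), both with mid100 only (adjusted p over 47 = 0.445 and 0.426 by limma). Other lists also had calls over 48 tumours that ended over 47. Higher were Cish (0.39), 1 of 14 STAT5 targets and alveolar genes, and Krt6b (0.40), 1 of 11 skin genes. Lower were Jchain (-0.39), 1 of 7 B cell genes, and Cnn1 (-0.54) and Myh11 (-0.50), 2 of 10 basal genes. Krt6b ranged from 3.83 to 4.73 log2 in the 48 tumours and Jchain had a median of 3.76, near the filter on low signal.

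Erbb2 lost nearly all of its related genes with the 2 tumours. Over 50 tumours its largest r were with Etv1 (0.92), BC006965 (0.91) and Stk39, a stress kinase (0.91), and the most negative with Slc16a10, an amino acid transporter (-0.92), Apcdd1, a Wnt inhibitor (-0.91), and Sox7 (-0.89). Etv1 was 7.03 in mid60 and 8.09 in mid79, against 10.26, 11.06 and 11.33 as lowest, median and highest of the other 48. BC006965 was 5.32 and 5.48, against 8.76, 9.75 and 10.13, and Slc16a10 was 7.75 and 7.65, against 5.09, 5.37 and 6.32. Over 48 tumours Etv1 gave r = 0.29 (limma adjusted p = 0.278), BC006965 0.18 (0.553), Stk39 0.37 (0.152), Apcdd1 -0.21 (0.451) and Sox7 -0.40 (0.128), and Slc16a10 was still called (-0.55, 0.0274). Of these 6 genes, 1 was thus called without the 2 biopsies.

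Within the 48 tumours, Erbb2 had its largest r with Atn1, a transcriptional corepressor (0.71, limma adjusted p = 0.00101), Foxp4, a forkhead factor (0.61), Mrpl52, a mitochondrial ribosomal protein (0.59), Zfp598, which senses collided ribosomes (0.58), and Zfp956 (0.57). The most negative were Ccl3, a chemokine (-0.62), Angptl4, an inhibitor of lipoprotein lipase (-0.62), Wsb1 (-0.61), Rlf (-0.60) and Utp11, of ribosome assembly (-0.59). Of these 10, 10 were called over 47 tumours, 5 with the stromal scores as covariates, 1 with the chromosome 4 score and 0 on ranks. Over all 50 tumours 5 of them were not called, Atn1 (r = 0.26, limma adjusted p = 0.168), Zfp598 (0.17, 0.392), Wsb1 (0.0039, 0.988), Rlf (-0.26, 0.155) and Utp11 (-0.25, 0.171). On ranks over 48 tumours limma called 0 genes of 18044 with Erbb2, with 2443 at an unadjusted p under 0.05, and the rank-based adjusted p of Atn1 was 0.0583.

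Few genes of the lists followed Erbb2 within the 48 tumours. Of 14 factors, Sox10, a neural crest and progenitor factor, rose (r = 0.53, limma adjusted p = 0.0311) and Ybx1, a Y-box factor reported to act on EGFR and ERBB2 genes, fell (-0.54, adjusted p = 0.0277), against 0.2% and 0.255% of all genes. Without mid100 neither was called (limma adjusted p = 0.0641 for Sox10 and 0.0575 for Ybx1). The adipocyte lipase Lipe fell (-0.50, adjusted p = 0.0498, and 0.0888 over 47 by limma), 1 of 9. Of the luminal markers limma called 0 of 19, with 3 higher at an unadjusted p under 0.05. Over 50 tumours, 13 of the 19 had been called higher and 2 lower, against 16.6% and 14.7%.

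Genes beside Erbb2 on chromosome 11 were set against it next. Of the 10 tested genes on either side, limma called 0 of 20 in the 48 tumours, with 1 at an unadjusted p under 0.05, and their median r was 0.06, against 0.05 over the other genes of the chromosome. Over 50 tumours 4 were higher and 2 lower, against 16.6% and 14.7% of all genes. Stard3, a cholesterol-binding protein, had r = 0.47 over 50 and 0.30 over 48 tumours (limma adjusted p = 0.271), and Pgap3, next to Erbb2, 0.54 and 0.15 (0.642). Grb7, which lies with ERBB2 in the amplified region of human breast cancers, had 0.50 and -0.03 (0.941). Of 17 tested genes of that human region, 0 were called with Erbb2 in the 48 tumours, with 1 higher at an unadjusted p under 0.05. In the 48 tumours 1 of 20 neighbours of Erbb3 was lower, against 6.4% of all genes, and 2 of 20 of Erbb4 were higher, against 5.99%, and those of Egfr 0 of 20 by limma, with 3 at an unadjusted p under 0.05.

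Egfr was closest to genes of varied roles. Its r over 48 tumours was largest with Cap1, an actin regulator (0.66), Ppt1, a lysosomal thioesterase (0.65), Pld3, a lysosomal phospholipase D family protein (0.64), Fkbp15 (0.63) and Ago3, an Argonaute protein (0.62). It was most negative with Dsg1c, a desmosomal cadherin (-0.69, limma adjusted p = 0.000320), Mthfd2l, a mitochondrial folate enzyme (-0.67), Ralgps2, an exchange factor for Ral (-0.67), 1700047M11Rik (-0.63) and Orc5, of the origin recognition complex (-0.63). Over 50 tumours Ppt1 (0.64), Ago3 (0.63) and Fkbp15 (0.61) were nearest, and Dsg1c (-0.67), Mthfd2l (-0.66) and the nuclear receptor gene Nr1i2 (-0.64) most negative. Dsg1c was 3.94 in mid60 and 3.82 in mid79, against 3.99, 4.97 and 8.69 as lowest, median and highest of the 48. The 10 genes named over 48 tumours were called over 47, and over 48 on ranks and with the stromal scores as covariates. With the stromal scores over all 50 tumours, Orc5 was not called (limma adjusted p = 0.0981).

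Among the lists, 2 of 14 proliferation genes fell with Egfr over 48 tumours, Cdk1, the mitotic kinase (r = -0.54, limma adjusted p = 0.00806), and Mcm5, of the replicative helicase (-0.45), against 2.08% of all genes. The fat droplet gene Plin2 (0.47) and Btn1a1, of milk fat secretion (0.46), rose, 2 of 14 alveolar genes against 2.05% of all genes. Ybx1 (0.46), 1 of 14 factors, and the T cell gene Cd3g (0.43), 1 of 9 T and NK cell genes, rose too. The chaperone Hsp90b1 fell (-0.44), 1 of 3 tested. Of these 7, 3 were called over 47 tumours and 0 with the stromal scores as covariates, where the 10 nearest genes were all called. Limma called 0 of 6 EGF-type ligands, 0 of 4 neuregulins, 0 of 18 adaptors and 0 of 21 restraints with Egfr in the 48 tumours, with 1, 0, 3 and 3 at an unadjusted p under 0.05.

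The genes related to Egfr and Erbb4 were unevenly spread over chromosomes, a pattern chosen after the values were seen. Of 1080 tested genes on chromosome 4, 163 (15.1%) were higher with Egfr over 48 tumours against 2.05% of all genes, and 249 (23.1%) were higher with Erbb4 against 5.99%. Within the 43 tumours outside the low Erbb4 set, 55 (5.09%) were higher with Erbb4 against 1.4%. The 4 genes Cap1, Ppt1, Fkbp15 and Ago3 lie there. With Erbb3, 13.4% were lower against 6.4%, and with Erbb2, 19 (1.76%) were lower against 0.255%. None of the 4 receptor genes lies on chromosome 4: Egfr and Erbb2 are on chromosome 11, Erbb3 on 10 and Erbb4 on 1.

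The mean standardised level of a chromosome's genes, less the tumour's median over the 20 chromosomes, was used as its score. It is thus relative to the other chromosomes, and 80 relations of 4 receptors with 20 chromosomes were computed over 48 tumours. Of them, 8 passed an adjusted p of 0.05 by r and 6 by rho in permutation tests. The chromosome 4 score had r = 0.53 with Egfr (permutation p = 0.00013, adjusted p = 0.0052, rho = 0.59), -0.46 with Erbb2 (adjusted p = 0.0106, rho = -0.44), -0.46 with Erbb3 (adjusted p = 0.0106, rho = -0.48) and 0.44 with Erbb4 (adjusted p = 0.0168, rho = 0.37 with an adjusted p of 0.0793). Without mid87 and mid47, the tumours with the most distant scores, these were 0.51, -0.47, -0.49 and 0.42. The score of chromosome 9 had r = 0.60 with Erbb3 (rho = 0.40 with an adjusted p of 0.0615) and -0.47 with Egfr, and that of chromosome 7 had 0.50 with Egfr. Erbb2 passed with chromosome 9 by rho only (rho = 0.47, permutation adjusted p = 0.019, r = 0.38 with 0.0838). The score of chromosome 18 had r = -0.51 with Erbb4 (rho = -0.37 with a permutation adjusted p of 0.0772). On that chromosome 77 of 458 genes (16.8%) were lower with Erbb4 against 4.75%. In the 43 tumours, r with Erbb4 was 0.34 for the chromosome 4 score (permutation p = 0.0229, rho = 0.27) and -0.37 for that of chromosome 18 (p = 0.0168, rho = -0.28).

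With the chromosome 4 score as a covariate over 48 tumours, limma called 0 genes with Egfr, with 1733 at an unadjusted p under 0.05, and 0 higher and 2 (0.0111%) lower with Erbb2, with 1890 at an unadjusted p under 0.05. With Erbb3 it called 1188 (6.58%) higher and 1015 (5.63%) lower and with Erbb4 864 (4.79%) and 652 (3.61%). In the same fit Egfr and Erbb2 gave r = -0.17 (limma adjusted p = 0.751). In that fit 0 of the 10 genes named for Egfr and 1 of the 10 for Erbb2, Ccl3 (limma adjusted p = 0.0258), were called, against 10 of 10 for Erbb3 and for Erbb4. Egf and Clic6 were called with Erbb4 in that fit (limma adjusted p = 2.30e-08 each), and Epcam with Erbb3 (0.00164).

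**Figure D5:**
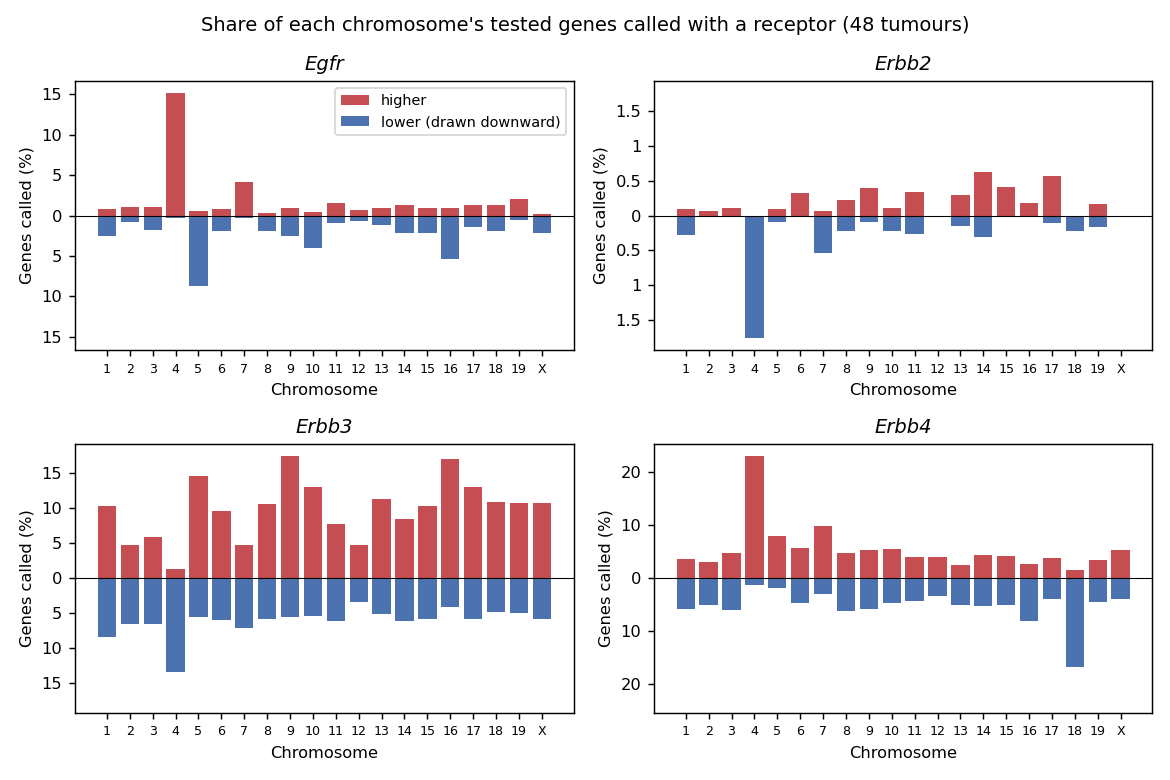
Share of the tested genes of each chromosome (vertical axes, %) called higher (upward) or lower (drawn downward) where a receptor was higher, by limma over 48 tumours; each panel has its own range. Chromosome 4 holds the largest share of genes higher with Egfr (15.1%) and Erbb4 (23.1%) and of genes lower with Erbb3 (13.4%) and Erbb2 (1.76%).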

How the data were processed

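RNA of 50 tumour biopsies was measured on Affymetrix arrays, 1 per tumour. The deposited values are log2 levels per probe set, and the submitters' processing notes name RMA and, with no role given, mm8. Background and probe-level steps cannot be revisited from these values, and the number of arrays limits the precision. Of 34472 probe sets, 23521 had 1 gene symbol, 1814 several and 9137 none in the platform annotation; 23328 of the first matched a current RefSeq gene by Entrez ID. Per gene the one-gene probe set with the highest mean was used, and genes with a mean of at least 4.09 log2 (the 25th percentile of probe sets) were tested. The order of genes on chromosomes is that of GRCm38.p6.

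Each receptor, standardised over the tumours used, was the predictor in limma 3.58.1 (lmFit and eBayes with trend, R 4.3.3), with Benjamini-Hochberg adjustment over the 18044 other genes. Permutation tests used 100000 permutations. A marker score is the mean of its standardised genes, and a chromosome score is that mean less the tumour's median over chromosomes. The fit was tested on simulated data with the real Erbb4 levels of 50 tumours and the mean and SD of each of 18045 genes. There, 52 of 100 genes planted at r = 0.5 and 100 of 100 at r = 0.7 were called, with 9 false calls. Apart from the planted relations each gene was drawn independently, without the outlying tumours or relations between genes of the real data. These rates may therefore not hold for the real fits. The members and the 23 gene lists were chosen with earlier results of these data known. Named genes were, per receptor, the 5 largest r in each direction over 48 tumours and 3 over 50, up to 4 called members per list and direction, all ligands, and, for mid60 and mid79, the 3 list members farthest from the median of the other 48. For mid100 and for chromosomes, genes were chosen after their values were seen. Alternatives were a probe set mean or largest SD, no filter or one at the 50th percentile, a second quantile normalization, ranks, array weights, marker scores as covariates and tumours left out. Relations and scores were computed with scipy 1.17.1, pandas 2.3.3 and numpy 2.4.6 in Python 3.11.15, and figures were drawn with matplotlib 3.10.9.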

Additional observations from a re-analysis of the deposited data

How the results depend on the processing

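No paired analysis was possible because all tumours form 1 group and carry no shared replicate numbers. The share of tested genes called over 50 tumours was 1.52% higher and 1.73% lower with Egfr, 16.6% and 14.7% with Erbb2, 18.9% and 13.1% with Erbb3 and 11.6% and 10.3% with Erbb4. The counts behind these stayed within 1.5 times under both other probe set rules, both other filters and a second quantile normalization. Without mid60 and mid79 the Egfr shares rose to 2.05% and 2.08%, within 1.5 times. The others fell without that pair to 0.2% and 0.255% with Erbb2, 9.4% and 6.4% with Erbb3 and 5.99% and 4.75% with Erbb4, and without mid100 too to 0.0554% and 0.105%, 3.67% and 1.3%, and 6.25% and 5.46%. Without the 2 tumours farthest from the receptor's median, shares were 0.482% and 0.704% with Egfr, 0.2% and 0.255%, 8.98% and 5.54%, and 6.15% and 5.29%. On ranks over 50 tumours they were 0.443% and 0.427% with Erbb2, 8.75% and 2.9% with Erbb3 and 7.19% and 4.98% with Erbb4. With the stromal scores as covariates they were 0.765% and 0.299% with Egfr, 5% and 5.97%, 2.29% and 1.63%, and 6.43% and 5.59%. With array weights they were 2.57% higher with Egfr, 1.67% and 2.67%, 5.5% and 3.1%, and 6.68% and 5.83%.

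The alternatives in this paragraph were chosen after seeing the data. Over 48 tumours on ranks, shares were 2.43% higher with Egfr, 0% and 0% with Erbb2 (limma, 2443 genes at an unadjusted p under 0.05), 5.13% and 1.56% with Erbb3 and 5.23% and 3.55% with Erbb4. Over 48 tumours with the stromal scores they were 0.964% and 0.399%, 0.0166% and 0.0277%, 1.5% and 0.97%, and 4.06% and 4.46%. With the chromosome 4 score limma called 0% and 0% with Egfr over 50 tumours (1559 genes at an unadjusted p under 0.05) and over 48 (1733), and over 48 also 0% and 0.0111%, 6.58% and 5.63%, and 4.79% and 3.61%. Without the 7 tumours low in Erbb4 they were 1.4% and 0.737% with Erbb4.

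For the pairs, r was recomputed from limma's statistic. Erbb2 and Erbb3 (0.72) lost the call at 0.24 without mid60 and mid79, which are also the farthest tumours, 0.16 without mid100 too, 0.24 on ranks, 0.30 with the stromal scores and, over 48 tumours, 0.14 on ranks, 0.019 with the stromal scores and 0.032 with the chromosome 4 score. Erbb2 and Erbb4 (0.40) lost it at 0.051 on ranks, 0.20 with the stromal scores, 0.059 with array weights and 0.089 with the chromosome 4 score over 48, and turned negative at -0.14 without mid60 and mid79, -0.14 without mid100 too and, over 48, -0.074 on ranks and -0.27 with the stromal scores. Erbb3 and Erbb4 (0.37) lost it at 0.0073 without mid60 and mid79, 0.14 without mid79 and mid100, 0.099 on ranks, 0.20 with the stromal scores, 0.043 with array weights and 0.27 with the chromosome 4 score over 48, and turned at -0.011 without mid60, mid79 and mid100 and, over 48, at -0.021 on ranks and -0.16 with the stromal scores. Uncalled relations that turned were Egfr with Erbb2 (0.10 with the stromal scores, 0.024 with the chromosome 4 score), Egfr with Erbb3 (0.016 with the stromal scores) and Egfr with Erbb4 (-0.0038 after quantile normalization, -0.044 on ranks, -0.17 with the chromosome 4 score and, over 48, -0.26 with it and -0.021 on ranks). The SD of Erbb2 was 0.19 without mid60 and mid79 and without mid100 too, and 0.19 as a scaled median absolute deviation; that of Erbb3 was 0.26, 0.22 and 0.23. The causes were not tested, other than that leaving out tumours leaves fewer samples and removes the outlying values.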
